A study of Drosophila melanogaster with 6 samples.

Results

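The Iroquois complex of Drosophila melanogaster holds 3 genes, ara, caup and mirr, and their RNA was followed here in wing imaginal discs with opposite transgenes of the epidermal growth factor receptor Egfr. The members were chosen by name, as every probe set that the platform annotation assigns to exactly 1 of these symbols. Each gene had 1 such probe set (143855_at for ara, 143856_at for caup and 143756_at for mirr), so the complex is 3 of 13966 probe sets tested. The activated group consisted of 3 samples of wing discs from larvae of the last (the third) instar in which 71B-Gal4 drove an activated receptor, labelled TOP (arrays ACT1 to ACT3). The other group consisted of 3 samples in which the same driver drove a dominant negative receptor (arrays DN1 to DN3). Both groups thus carry the driver and a receptor transgene, and discs with neither transgene were not analysed here, which leaves the unmanipulated level of each gene unknown. The labels do not say where in the disc 71B-Gal4 is active, nor whether the replicates came from separate animals. A p-value here accordingly reflects no more than the spread among these 6 arrays, part or all of which may be technical.

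Iroquois genes encode homeodomain transcription factors of the TALE class, whose homeodomain carries an insertion of extra residues in a loop. In the wing disc they help to set the notum, the body wall part of the disc, apart from the wing hinge. The genes ara and caup also act in the proneural prepattern that places sensory bristles and in the forming wing veins, and mirr contributes to notum, alula and hinge. Egfr signalling is known to drive Iroquois expression in the prospective notum and to act in the veins. Such domains are parts of the disc. In bulk disc RNA, fewer cells of a type and less RNA per cell cannot be told apart.

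All 3 genes averaged higher in activated discs, and none of them passed the test over all probe sets. The gene caup stood out by groups that did not overlap, ara by a small difference inside overlapping groups, and mirr by a spread within both groups that was far larger than the difference between them. A log2 difference above 0 was the commoner sign on these arrays, held by 54.6% of all probe sets. Calls were made with limma at a Benjamini-Hochberg adjusted p under 0.05, which 0% of the probe sets reached. Before adjustment 308 had a p under 0.05, of which 128 were higher and 180 lower with the activated receptor.

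caup had log2 signals of 8.13, 8.55 and 8.31 in ACT1, ACT2 and ACT3, against 7.71, 7.91 and 7.94 in DN1, DN2 and DN3. Every activated array lay above every dominant negative array, with a gap of 0.19 between the lowest of the first and the highest of the second. The mean was 8.33 ± 0.21 in the activated group and 7.85 ± 0.12 in the dominant negative group (SD, n = 3 each). The log2 difference was 0.48 (SE 0.15, 95% interval 0.13 to 0.82), or 1.39-fold. Its limma p was 0.0126 before adjustment and its adjusted p was 1.00. Groups without overlap and higher in activated discs were found for 3.39% of all probe sets, and an unadjusted p under 0.05 in this direction for 0.917%, and 1 member of 3 is too few to set against either share. By size, 28 probe sets (0.2%), caup among them, had a log2 difference at least as large together with groups that did not overlap. An exact two-sided permutation test of 3 against 3 arrays cannot go below p = 0.1, the value it gave for caup. Leaving out 1 array at a time kept the log2 difference of caup between 0.37 and 0.58.

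ara had log2 signals of 10.32, 10.71 and 10.48 in ACT1, ACT2 and ACT3, against 9.91, 10.65 and 10.33 in DN1, DN2 and DN3. The groups overlapped: DN2 lay above ACT1 and ACT3, and DN1 was the lowest array by some distance. Group means were 10.50 ± 0.19 with the activated and 10.30 ± 0.37 with the dominant negative receptor (SD, n = 3 each). The log2 difference was 0.21 (SE 0.20, 95% interval -0.25 to 0.66), with an adjusted p of 1.00. DN1 carried much of it, since the log2 difference was 0.01 without DN1 and 0.38 without DN2. The exact permutation test gave p = 0.5.

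mirr had log2 signals of 7.35, 7.69 and 9.32 in ACT1, ACT2 and ACT3, against 6.92, 7.51 and 9.09 in DN1, DN2 and DN3. The third array of each group stood high, and the remaining 4 arrays lay at or below 7.69. Activated discs averaged 8.12 ± 1.06, and dominant negative discs 7.84 ± 1.12 (SD, n = 3 each). The log2 difference of 0.28 (SE 0.61, 95% interval -1.09 to 1.65) was smaller than either SD and had an adjusted p of 1.00. Its sign was not kept with 1 array left out. The log2 difference was -0.32 without ACT3 and 0.90 without DN3, where only 1 group keeps a high array, and -0.18 without DN1. Without both ACT3 and DN3, an alternative chosen after seeing the data, it was 0.30 (SE 0.23). The exact permutation test gave p = 0.6. Within each replicate number mirr read higher in the activated array, as did ara and caup, though the arrays were not treated as paired. In a fit with replicate number as a block, the log2 difference of mirr was 0.28 (SE 0.12), and mirr was not called.

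**Figure D1:**
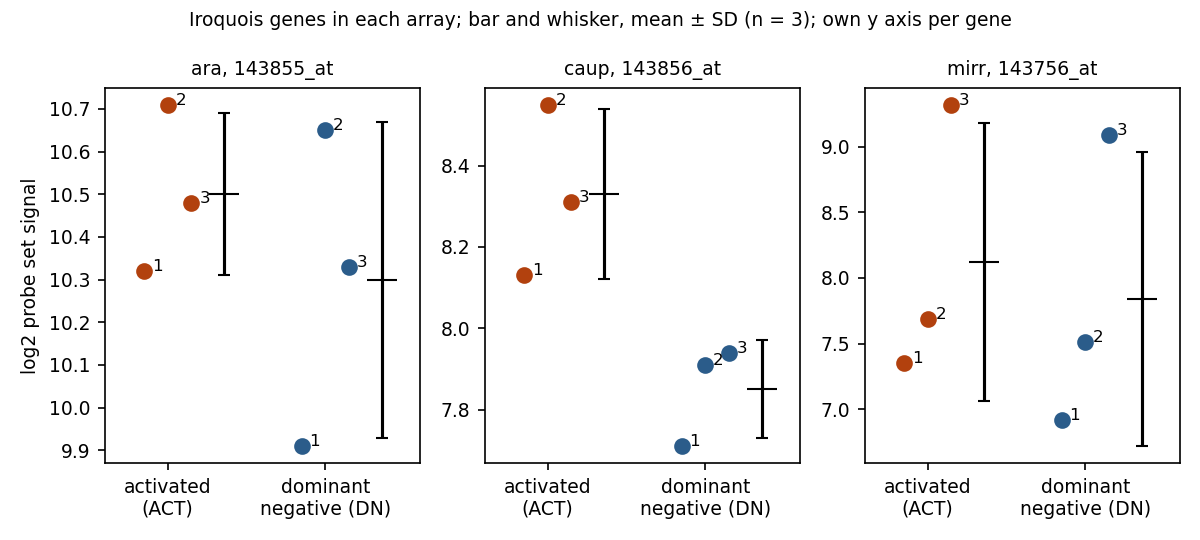
Log2 probe set signal of ara, caup and mirr (vertical axes, one scale per gene) in the activated and the dominant negative group; points are arrays marked with their replicate number, and the bars with whiskers are the mean ± SD (n = 3). The groups are separate for caup (8.13 to 8.55 in activated, 7.71 to 7.94 in dominant negative discs), while for mirr array 3 of both groups lies above 9.

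The spread of mirr within groups was unusual for these arrays. Its residual SD, the spread left after the group means, was 1.09 on the log2 scale, and 30 of 13966 probe sets, mirr included, had one at least as large. The residual SD was 0.30 for ara and 0.17 for caup, which 2589 and 8461 probe sets reached. For mirr the lower of ACT3 and DN3 exceeded the highest of the other 4 arrays by 1.40. A gap of at least this size in the same direction was found for 2 probe sets, the other having no single gene symbol, and in the opposite direction for 10. Some separation of these 2 arrays was common: both lay above all others for 12.6% of the probe sets and below all others for 15.9%. All 3 Iroquois probe sets were above the yeast control probe sets, which have no fly transcript and averaged 5.54 to 5.96 per array. The smallest distance from the control mean of the same array was 1.07 for mirr, 1.85 for caup and 4.05 for ara.

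The 3 responses were compared with each other through the difference of 2 probe sets within each array, in which the level of the array cancels. caup minus ara was -2.18 ± 0.02 in the activated group, against -2.45 ± 0.28 in the dominant negative group (SD, n = 3 each). The change was 0.27 without overlap between groups. The exact permutation test gave p = 0.1, the smallest it can give, and p adjusted over the 3 pairs was 0.3. The groups were barely apart: caup and ara read 8.13 and 10.32 in ACT1, against 7.71 and 9.91 in DN1. With quantile normalization this change was 0.20 and the exact permutation p was 0.2. The change was 0.20 for caup minus mirr and -0.07 for ara minus mirr (exact permutation p = 0.6 and adjusted p = 0.6 for both). The response of caup was therefore not shown to differ from that of ara or mirr, nor the response of ara from that of mirr. Over the 6 arrays ara and caup had a Pearson's r of 0.70 (exact permutation p = 0.0944, adjusted over 3 relations 0.283) and a Spearman's rho of 0.60 (exact permutation p = 0.242, adjusted 0.297). Without ACT2 and DN1, the arrays farthest from the median of ara, r was -0.18, so the relation rests on those arrays. No r is given for mirr with either gene, since its arrays fall into separate clusters.

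**Figure D2:**
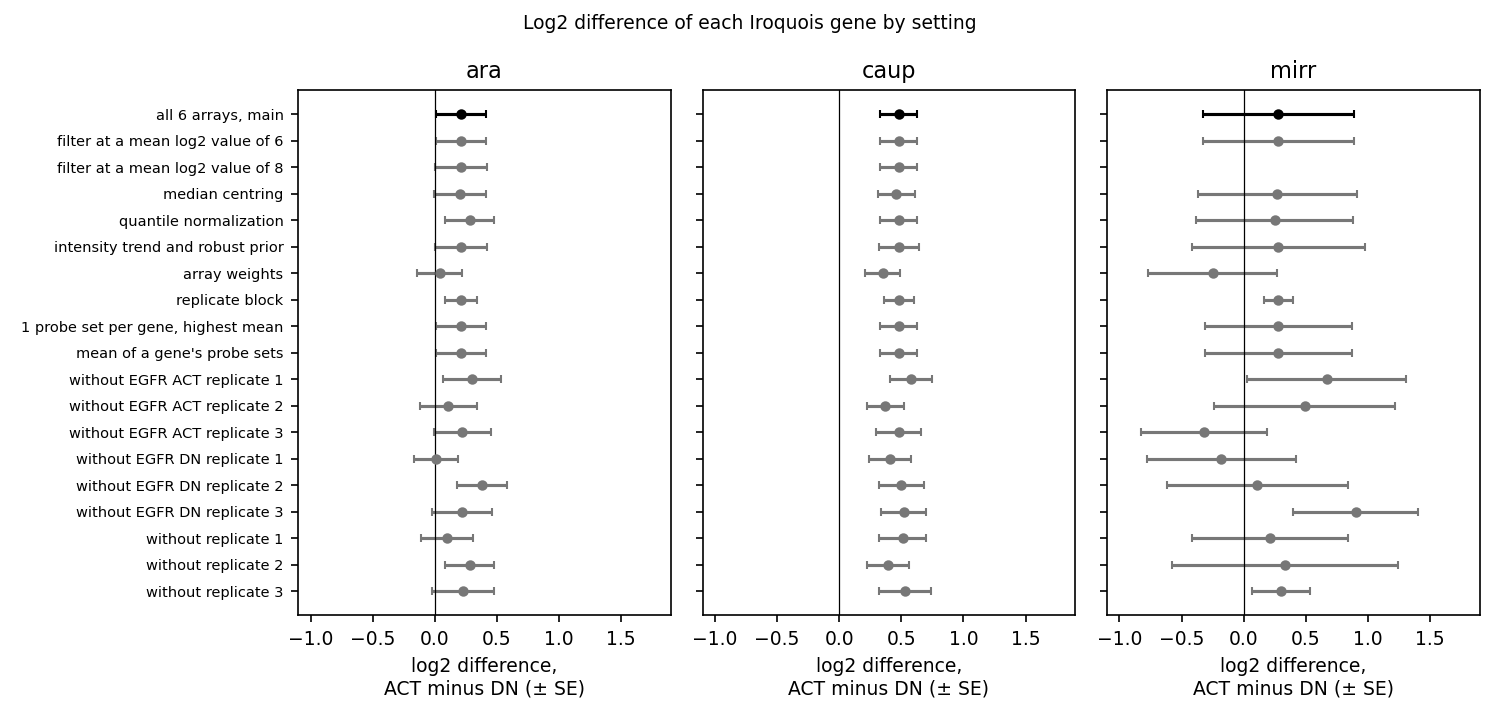
Log2 difference, activated minus dominant negative (horizontal axes), for ara, caup and mirr under each setting of the comparison (rows); points are the estimates, whiskers ± SE, and the top row in black is the fit of all 6 arrays. The caup estimates run from 0.35 to 0.58, those of ara from 0.01 to 0.38, and those of mirr from -0.32 to 0.90, on both sides of 0.

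The 3 genes lie side by side on chromosome arm 3L, in the order ara, caup, mirr, with 0 other protein-coding genes between them in RefSeq (assembly Release 6 plus ISO1 MT). The array annotation names no genome build, so only this order was used. The 4 nearest measured protein-coding genes on each side were set beside them, an addition chosen by position. Of these 8 neighbours, 2 were higher and 6 lower in activated discs, 0 were called and 0 had groups without overlap. Over all probe sets 0% were called. Groups without overlap were found for 3.39% in the higher direction and for 396 of 13966 in the lower. A count of 0 among 8 genes is too small to set against these shares. The log2 differences of the neighbours ran from -0.36 to 0.14, below that of all 3 Iroquois genes in this fit. That order was not kept under every setting. With array weights ara had 0.04 and mirr -0.25, below CG4069 and SmD1 at 0.12 each, while caup had 0.35. On the ara side the nearest measured gene, sowah, had a log2 difference of -0.07 (SE 0.14). On the mirr side the nearest, SmD1, which encodes a core protein of the spliceosome, had 0.14 (SE 0.15), and Ptp69D, a receptor tyrosine phosphatase gene, had -0.17 (SE 0.19). The largest in size was CG32109 at -0.36 (SE 0.18, adjusted p = 1.00). CG4069 had 0.12 (SE 0.14), Pmm2 had -0.03 (SE 0.13), Tsf2, of the transferrin family, had -0.27 (SE 0.26), and Klc, the kinesin light chain gene, had -0.15 (SE 0.26). None of these neighbours was tested against the members.

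**Figure D3:**
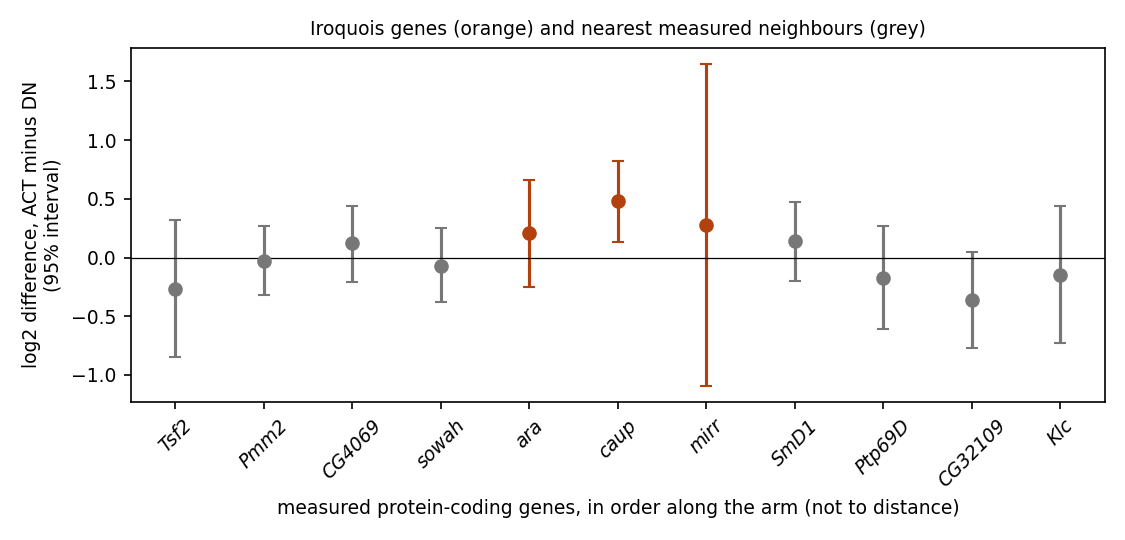
Log2 difference, activated minus dominant negative, with its 95% interval (vertical axis) for the Iroquois genes in orange and the 4 nearest measured protein-coding genes on each side in grey, in their order along the arm and not to distance. The 3 Iroquois genes have the highest estimates, 0.21 to 0.48, and caup is the only one of the 11 genes shown whose interval stays above 0.

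Genes that act upstream of the Iroquois genes in veins and notum did not differ in one direction. Of 14 listed, 10 were measured, with 3 higher and 7 lower in activated discs and 0 called. The median log2 difference was -0.15, beside 0.02 over all probe sets. It leaves out vn, pnt, wg and arm, which were not matched to a probe set of 1 symbol. The 3 that were higher, Egfr, salm and salr, also had groups without overlap, which 3.39% of all probe sets had in this direction. Egfr is the gene of the transgenes themselves. It read 10.40, 10.26 and 10.82 in ACT1, ACT2 and ACT3, against 8.50, 9.33 and 9.09 in DN1, DN2 and DN3, at the probe set of higher mean. Its log2 difference was 1.52 (SE 0.23, adjusted p = 0.715), while its other probe set had -0.59, and whether either detects the transgenes is not known here. The zinc finger genes salm and salr, Dpp targets that help to place the veins, each had a log2 difference of 0.41 (SE 0.15).

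The other upstream genes overlapped between groups. The log2 difference was -0.64 (SE 0.46) for Mad, the transcription factor of Dpp signalling, -0.20 (SE 0.18) for dpp, the BMP ligand gene, and -0.10 (SE 0.21) for its receptor gene tkv. Among Hedgehog genes it was -0.39 (SE 0.29) for ci, the transcription factor of the pathway, and -0.19 (SE 0.31) for the posterior selector gene en. In the notum list, pnr, a GATA factor gene of the medial notum, had -0.25 (SE 0.21), and ush, which encodes its Friend of GATA partner, had -0.12 (SE 0.16). The signal of pnr was near control level, at -0.01 to 0.96 from the yeast control mean of the same array.

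Vein genes likewise had a median log2 difference of -0.05 over 10 of 15 listed genes, with 4 higher and 6 lower and 0 called. The listed genes rho, ab, Dl, N and vn were not matched. The POU domain gene vvl had 1.00 (SE 0.19, adjusted p = 1.00). The gene aos, which encodes a secreted Egfr inhibitor, read 5.62, 5.45 and 6.04 in ACT1, ACT2 and ACT3, against 5.11, 5.06 and 5.40 in DN1, DN2 and DN3. It lay above the yeast control mean of the same array only in ACT3, so its log2 difference of 0.51 (SE 0.18, adjusted p = 1.00) is between values at control level. Groups without overlap were found for these 2 members, beside 3.39% of all probe sets in this direction, and 2 are too few to set against that share. The nuclear receptor-like genes of vein formation had values near 0, kni at 0.04 (SE 0.14) and knrl at -0.12 (SE 0.14). So did net, a repressor of vein fate, at 0.05 (SE 0.13), px at -0.07 (SE 0.19) and the Notch target E(spl)mbeta-HLH at -0.03 (SE 0.28). The intervein gene bs, which encodes the serum response factor, had -0.15 (SE 0.24). The genes dpp and tkv belong to this list as well.

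Notum prepattern and sensory genes had a median log2 difference of -0.08 over 12 of 16 listed genes, with 4 higher, 8 lower and 0 called. The upstream genes pnr and ush belong to this list as well and are counted in both. No member had groups without overlap, which 3.39% of all probe sets had in the higher direction and 396 of 13966 in the lower. With 12 genes this is too few to set against these shares. The members of smallest p were emc, an inhibitor of proneural proteins, at -0.47 (SE 0.31), sr, a tendon cell gene, at -0.28 (SE 0.20), and Dr, a homeobox gene also called msh, at -0.56 (SE 0.48). The proneural genes ac and sc, named after their values were seen because ara and caup act on them, had 0.19 (SE 0.17) and -0.04 (SE 0.27).

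Hinge and body wall genes had a median log2 difference of -0.04 over 9 measured genes, led by the T-box genes Doc1 at 0.28 (SE 0.17) and Doc2 at 0.26 (SE 0.18) and by bi, another T-box gene, at 0.23 (SE 0.15). Dorsal compartment and boundary genes had -0.26 over 7 of 10 listed. That median leaves out Dr (-0.56), which was listed there as msh and so not matched. In this list caps, a leucine-rich repeat cell surface gene, had 0.26 (SE 0.14) and groups without overlap. Of all probe sets 3.39% had such groups in this direction, and 1 member of 7 is too few to set against that share. In that list fng, which modifies Notch, had -0.40 (SE 0.25) and grn, a GATA factor gene, had -0.41 (SE 0.28). Of the other TALE homeodomain genes 1 of 4 listed was measured alone, achi, at 0.08 (SE 0.17). The copy vis lies beside achi and is so alike that their signals may mix.

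Among Egfr and ERK targets and feedback genes, the listed pnt, rho, vn and Ptp-ER were not matched. This list had a median log2 difference of 0.35, with 7 of 8 measured genes higher. Its members of smallest p were sty, an intracellular inhibitor of the pathway, at 0.90 (SE 0.16, adjusted p = 0.995), aos, at control level, and the ERK phosphatase gene Mkp3 at 0.33 (SE 0.14). The Iroquois median of 0.28 is the value of mirr, the middle one of 3 genes. It was 0.01 without DN1, 0.58 without ACT1 and 0.04 with array weights.

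**Figure D4:**
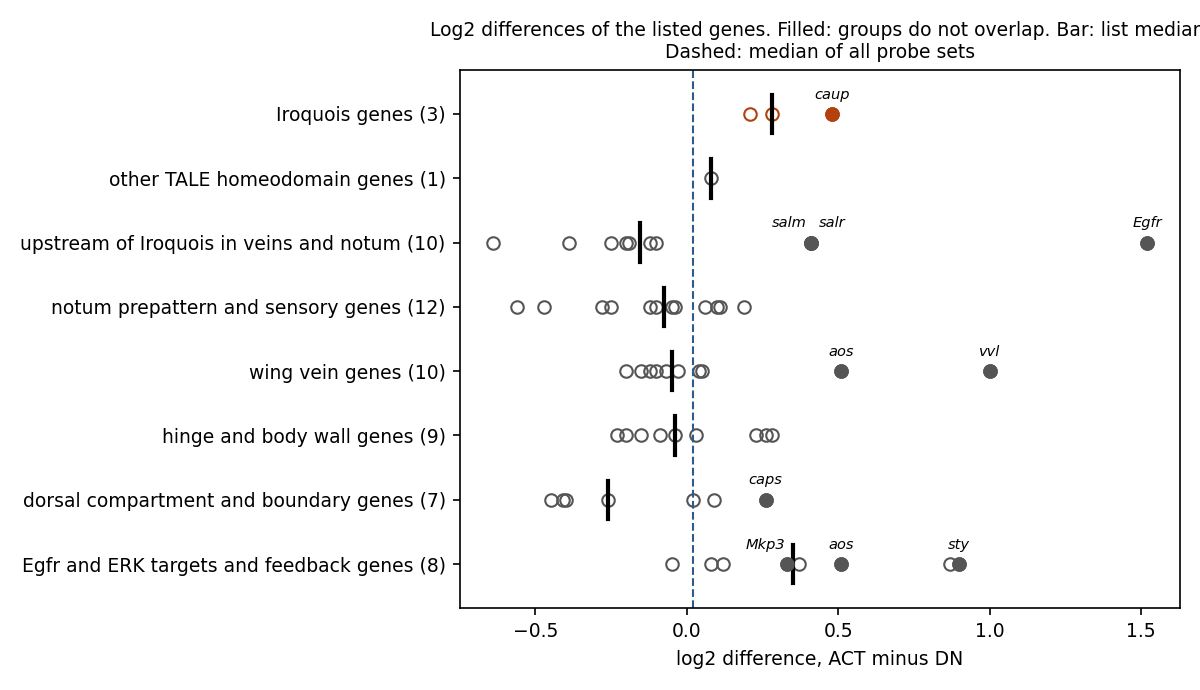
Log2 difference, activated minus dominant negative (horizontal axis), of the measured genes of each list (rows, number measured in brackets); filled points have groups that do not overlap, black bars are list medians, and the dashed line is the median of all probe sets at 0.02. The Iroquois median of 0.28 is the point of mirr and ran from 0.01 to 0.58 with 1 array left out, the Egfr and ERK target median is 0.35, and the upstream, notum, vein, hinge and dorsal lists have medians from -0.26 to -0.04. The dorsal list is shown without Dr, listed there under its other name msh.

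The probe sets most like each member were sought by Pearson's r over the 6 arrays, among single-symbol probe sets with a mean of at least 6 and an SD over the arrays not far below the member's. An r above 0.95 was reached by 5 of 8055 probe sets for caup, 11 of 8405 for ara and 8 of 398 for mirr. The genes named are the extremes of all these r over only 6 arrays, and r is given as a description. For caup, 8055 probe sets were eligible and the closest were EMC3 (r of 0.980), Ppm1 and CG7557 (0.975 each), AdamTS-B (0.959) and CG42673 (0.953). All 5 had groups without overlap, as follows from their likeness to caup. Another probe set of CG42673 had a log2 difference of -0.01, against 0.29 for the one named here. AdamTS-B, which encodes a secreted metalloprotease, read 10.28, 10.55 and 10.24 in ACT1, ACT2 and ACT3, against 9.85, 10.05 and 9.96 in DN1, DN2 and DN3. The most opposite were Dredd, a caspase gene (-0.985), CG31075 (-0.978) and mAcon2 (-0.976).

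For ara, with 8405 eligible, the closest were CG14712 (r of 0.990), CG11226 and Hmgs (0.973 each), yem and gig (0.969 each), and the most opposite were CG11164 (-0.991), Uros1 (-0.982) and CG7914 (-0.973). These genes shared with ara a low or high extreme at DN1. Hmgs, the gene of HMG-CoA synthase, read 7.16, 7.43 and 7.24 in ACT1, ACT2 and ACT3, against 6.87, 7.48 and 7.26 in DN1, DN2 and DN3. Another probe set of Hmgs had a log2 difference of -0.38, against 0.08 for this one. Another of yem had 0.15, against 0.06 for the one named. For mirr, 398 were eligible, and r there reflects mainly ACT3 and DN3. The closest were Tdg (0.987), lig (0.986), obe (0.983), Dp1 (0.971) and mbo (0.970), and the most opposite were bun and Pak3 (-0.997 each) and SRPK (-0.981). No gene appeared among the closest of 2 members.

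**Figure D5:**
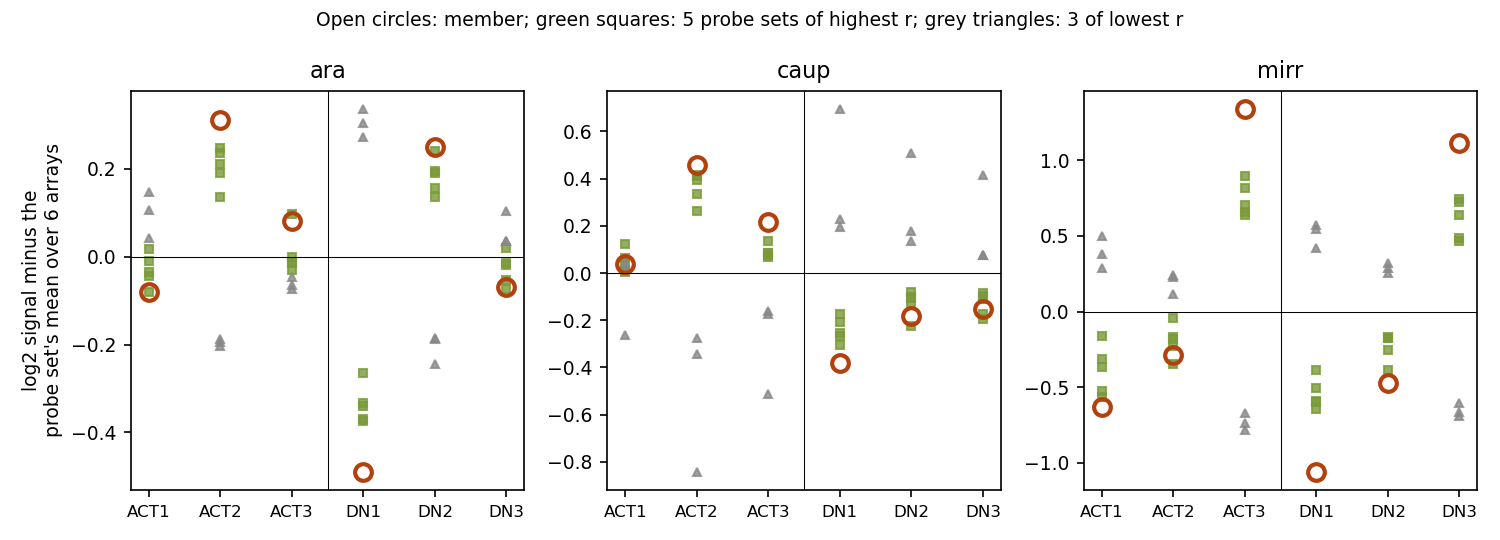
Log2 signal minus the probe set's own mean (vertical axes) in each activated and dominant negative array (horizontal axes), for each Iroquois gene (open circles), the 5 probe sets of highest r (green squares) and the 3 of lowest r (grey triangles). ACT3 and DN3 are the high arrays of mirr, DN1 is the low array of ara, and the activated arrays of caup all lie above its dominant negative ones.

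All 7 measured wing disc markers (nub, vg, ap, en, hh, rn and bi) were above the yeast control mean, and their log2 summed signal was 12.28 to 12.38 in activated and 12.06 to 12.48 in dominant negative discs. All measured markers of salivary gland (9), trachea (5), fat body (4) and leg and haltere discs (4) were above the control mean too, so this check does not set the wing disc apart from them. Beside the difference of caup, the 5 measured adepithelial myoblast markers, of the flight muscle precursors attached to the disc, were all lower in activated discs. Their log2 summed signal was 10.40 to 10.63 in activated and 10.74 to 10.99 in dominant negative discs, without overlap. All measured salivary gland, fat body and trachea markers were lower in activated discs as well, with median log2 differences of -0.61, -0.58 and -0.41, against -0.33 for the myoblast markers. Their log2 summed signals overlapped between groups, at 11.84 to 13.44 in activated and 12.17 to 13.80 in dominant negative discs for salivary gland and 12.54 to 13.09 in activated and 12.93 to 13.49 in dominant negative discs for trachea. For 8 hemocyte markers, 3 higher and 5 lower, the log2 summed signal was 11.68 to 11.83 in activated and 11.97 to 12.12 in dominant negative discs. That separation rests on SPARC (log2 difference -0.87, SE 0.18): over the other 7 markers, a sum chosen after seeing the data, it was 10.88 to 11.15 in activated and 10.77 to 10.96 in dominant negative discs. For 4 leg and haltere disc markers, all higher in activated discs, it was 10.58 to 10.78 in activated and 10.54 to 10.57 in dominant negative discs. Beside the high arrays of mirr, the log2 summed signal of 4 measured fat body markers was 11.11, 12.08 and 12.69 in ACT1, ACT2 and ACT3, against 12.09, 12.48 and 13.11 in DN1, DN2 and DN3. It was thus highest in ACT3 and DN3. Among the 4 markers only Lsp2 had this order, at 12.02 in ACT3, 12.35 in DN3 and 9.90 to 11.05 in the others. Fbp1, Fbp2 and apolpp read 10.91, 8.24 and 7.70 in ACT3, below their 11.54, 8.60 and 7.78 in DN2. The log2 summed signal of 5 neuronal markers was lowest in ACT3 and DN3 (9.34 and 9.48) and 9.60 to 9.79 in the others. The part of these cell types in the Iroquois values was not tested. Array medians lay between 8.01 and 8.06.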

How the data were processed

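Wing disc RNA of 6 samples was hybridised to Affymetrix arrays. The authors deposited 1 log2 value per probe set and array, made with GCRMA per the submitters' processing notes; the sources used here give no version, setting or genome build. That the scale is log2 follows from the range of the values. Of 14010 probe sets, 44 controls were left out and 13966 tested, with no filter on low values. Probe sets were named from the platform annotation (12443 with 1 symbol), and a gene with several was represented by the one of highest mean. Scanner files and probe sequences were not used here, so background flags and mixing of signal between ara and caup were not examined. The number of arrays limits the precision. Groups come from sample titles.

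Activated and dominant negative arrays were tested against each other in R 4.3.3 by limma 3.58.1 (lmFit, then eBayes without a trend; two-sided; no covariates), with p adjusted over all probe sets by Benjamini-Hochberg. Log2 differences are activated minus dominant negative. SE and 95% intervals are limma's. Single values used exact permutation tests (scipy 1.17.1). The limma step, and not the permutation tests, was run on simulated arrays. There a true log2 change of 0.5 was called in 1.4% of cases with independent noise and 0.4% with a shared component. For a change of 1 the shares were 53.6% and 26.2%. A log2 change of 0.5 was thus rarely called in these simulations. They raised 200 probe sets, drawn from all, by 0.5 or 1. The share called depends on these choices and was not worked out for a spread like that of caup. Lists are described by counts and medians, with no list test. The members, the 8 gene lists and 10 marker lists were chosen with earlier results of these data known. Named were all upstream, vein and TALE genes measured, the 3 of smallest p in each other list, and for each member the 5 probe sets of highest and 3 of lowest r (SD over the arrays at least 0.5 of the member's); neighbours and others are named as additions. Alternatives were 2 filters, 2 scalings, a trend with robust prior, array weights, a replicate block, 2 ways to join probe sets and leaving out arrays.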

Additional observations from a re-analysis of the deposited data

How the results depend on the processing

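Under 18 alternatives caup and ara kept a log2 difference above 0 and stayed uncalled, caup at 0.35 to 0.58 (adjusted p from 0.619 to 1.00) and ara at 0.01 to 0.38. mirr, left out by the filter at a mean of 8, was above 0 in 14 of 17. It was -0.25 with array weights and ran from -0.32 to 0.90 with arrays left out; without ACT3 or DN1 it was below 0. Same-numbered arrays were checked for pairing through their deviations from the group means. The correlations were 0.61 for number 1, -0.08 for number 2 and 0.60 for number 3, so not every pair passed 0.1 and the arrays were not treated as paired; 4 of 6 correlated best with their own number, and the labels do not say whether a number marks a shared day or batch. With the replicate block the log2 difference was 0.48 (SE 0.12) for caup, 0.21 (SE 0.13) for ara and 0.28 (SE 0.12) for mirr, none called, and the unadjusted count was 774 in place of 308. The reported fit called 0 probe sets; CG13053 alone was called with array weights and with probe sets averaged by gene, both on all 6 arrays, and without ACT3 and DN3 (0 to 1 with arrays left out). Unadjusted counts ran from 127 without ACT2 and DN2 to 1043 without ACT3, and were 1109 with array weights and 188 with the filter at 8, where fewer were tested. The change of caup minus ara ran from 0.12 without DN2 to 0.39 without DN1, and was 0.20 with quantile normalization. The change of caup minus mirr ran from -0.39 to 0.81 with an array left out. That of ara minus mirr ran from -0.68 to 0.54, and was 0.03 with quantile normalization. Of 40 other genes whose log2 differences the text gives from the gene lists and the neighbours, 10 changed sign under some alternative. With an array left out, achi ran from -0.04 to 0.22, en from -0.58 to 0.06, tkv from -0.27 to 0.07, kni from -0.05 to 0.09, E(spl)mbeta-HLH from -0.32 to 0.25, px from -0.21 to 0.11, Pmm2 from -0.07 to 0.03, sowah from -0.13 to 0.02, Klc from -0.45 to 0.10 and sc from -0.32 to 0.12. With array weights kni had -0.04 and Pmm2 0.01, and with quantile normalization E(spl)mbeta-HLH had 0.07. Of 143 list medians recomputed, 12 moved by more than the spread between arrays. Among them the upstream median was 0.15 with the filter at 8, where fewer genes remain, the vein median 0.09 without DN2, and the hinge median 0.14 without ACT2 and DN2 and -0.24 without ACT3 and DN3. The causes of the other changes were not tested.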

Other observations

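The probe sets that separated ACT3 and DN3 from the other 4 arrays by at least the gap of mirr are named here after their values were seen. In the direction opposite to mirr, the probe set 143087_at of br, the gene of the ecdysone-induced Broad transcription factors, read 10.75, 10.94 and 8.57 in ACT1, ACT2 and ACT3, against 10.20, 10.27 and 8.69 in DN1, DN2 and DN3. The gap was 1.51. The gene pAbp, whose protein binds poly(A) tails, read 13.72, 13.71 and 12.07 in ACT1, ACT2 and ACT3, against 13.95, 13.77 and 11.56 in DN1, DN2 and DN3. The gap was 1.64 for pAbp and 1.47 for MED26, which encodes a Mediator subunit. The genes aqz, drn, sov and CG2926 and the non-coding RNA CR32218 had gaps of 1.52, 1.53, 1.44, 1.65 and 1.64 in the same direction as br. So did 145188_at and 154421_at, which have no single symbol here, with gaps of 1.57 and 1.55. In the direction of mirr the 1 other probe set, 141407_at, has no single symbol here and a gap of 1.49.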
